A study of Homo sapiens with 4 samples.

Results

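The genes described here are 9 p53 response genes, CDKN1A, MDM2, GDF15, BBC3, BAX, ZMAT3, PHLDA3, RRM2B and SESN1, taken by name out of 28307 gene symbols counted by polyA RNA sequencing in human neurons. The transcription factor p53 is held at low levels in unstressed cells by the ubiquitin ligase MDM2, and is released by DNA damage, oncogene activity and other stresses. It then binds response elements near its target genes, whose products stop the cell cycle, feed nucleotides to DNA repair, trigger mitochondrial apoptosis or, as with MDM2, switch p53 off again. In neurons the apoptotic arm, with BBC3 (also called PUMA) and BAX, is known for its part in cell death after DNA damage and loss of trophic support.

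The libraries called CRISPRi came from neurons given lentivirus with guide RNAs to 1 transposable element, a MIR copy on chromosome 11, and those called control from neurons given the empty guide vector (n = 2 libraries each, described by the submitters as biologically independent). Both groups were excitatory neurons differentiated from WTC11, a single human induced pluripotent stem cell line, which carries dCas9-KRAB, a Cas9 without nuclease activity joined to a repressor domain, driven by CAG from an intron of CLYBL. Both were transduced after 2 weeks of differentiation with a viral dose (multiplicity of infection) of about 3, selected for 4 days with 0.5 µg/mL puromycin, and harvested on day 7 from the virus. With 2 guides designed per element, the sources used here do not say which guide each CRISPRi library received. Virus, puromycin and the repressor were thus shared by all 4 libraries, so the levels below are those of transduced and selected neurons, and no untransduced sample was analysed here for comparison.

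Summed over genes, the CRISPRi libraries held 44839748 (replicate 1) and 41560282 (replicate 2) counts, and the control libraries 944993 (replicate 1) and 39325038 (replicate 2). Control replicate 1 was thus 41.6 times shallower than the shallowest of the other 3, and 1 count there equals 1.06 CPM, the usual count scaled by the library's total over genes. The 12 neuron markers listed, among them MAP2, TUBB3 and the vesicular glutamate transporters SLC17A6 and SLC17A7, had counts in every library and summed to 18147 and 18998 CPM in the CRISPRi libraries, set against 16089 and 18395 CPM in the controls. For 6 of these 12 the exact Poisson counting interval of control replicate 1 lay below the other 3 libraries, and for 0 above them. The 6 were MAP2, TUBB3, STMN2, DCX, NEFL and NEFM. Of the 12 neuron markers, 11 had a positive log2 fold change (median 0.12, and 0.02 without control replicate 1). Control replicate 1 also stood apart in 20 cell cycle genes, which summed to 679 CPM there and to 131 to 143 CPM in the other 3 libraries. Of markers of other cell types, 6 microglial genes summed to at most 0.268 CPM and the defining astrocyte marker GFAP was at 0 to 0.0962 CPM. The 7 astrocyte genes together followed the groups, at 175 and 174 CPM in CRISPRi libraries and 147 and 89.9 CPM in controls. Nearly all came from the glutamate transporter SLC1A2 (log2 fold change 0.74, unadjusted p = 0.0106, adjusted p = 1 by edgeR). SLC1A2 was at 174 and 173 CPM in CRISPRi libraries and 140 and 89.0 CPM in control replicates 1 and 2. The median log2 fold change of the 4 tested astrocyte genes was 0.24, and 0.45 without control replicate 1. The 8 mesenchymal genes summed to 87.5 and 103 CPM in CRISPRi libraries and 79.4 and 97.7 CPM in controls. The groups did not overlap for 3 of the 8 that were higher in CRISPRi and 1 that was lower, beside 17.8% and 16.5% of all tested genes. The lower gene was TAGLN (log2 fold change -1.01, unadjusted p = 0.00495, adjusted p = 1 by edgeR). Among the higher, DCN (log2 fold change 2.19, unadjusted p = 0.0351 by edgeR) rested on 12 and 18 counts in CRISPRi libraries and 0 and 3 in controls. The part of these astrocyte and mesenchymal genes in the results was not tested. In bulk RNA, fewer cells of a type and less RNA per cell cannot be told apart, and results that rest on control replicate 1 are therefore also given without it.

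Target genes of p53 are known by the response elements it binds, and matches to that element in the promoters of the 9 genes are printed here to show what such a sequence looks like. RefSeq promoter windows on GRCh38.p14, running from 250 bases before to 50 bases after an annotated start, were held for 7 of the 9 genes (all but PHLDA3 and RRM2B). They were searched for the p53 response element consensus, a pair of adjoining 10-base half-sites that reads alike on both strands, with at most 3 mismatches in its 20 bases. In the sequences, written 5′ to 3′ on the gene's strand, capitals mark the 20 bases of the match, whose positions are given.
MDM2, chr12:68808923-68808942, plus strand: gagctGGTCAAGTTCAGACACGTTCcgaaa
MDM2, chr12:68808961-68808980, plus strand: aaaggAGTTAAGTCCTGACTTGTCTccagc
SESN1, chr6:109009018-109009037, minus strand: cgtctGGACAAGTCTCCACAAGTCAgaaat
GDF15, chr19:18386186-18386205, plus strand: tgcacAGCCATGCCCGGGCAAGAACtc
The pair of MDM2 matches, with 2 and 3 mismatches, begin 94 and 56 bases before the downstream of its start clusters, which is the internal promoter that p53 is known to use. The SESN1 match (3 mismatches) begins 49 bases before 1 of its 3 annotated starts, and the GDF15 match (3 mismatches) begins 28 bases after its start. Such a match was found in 3 of the 7 genes, and in 6.39% of the 27305 genes with a window. A match is a description of letters, and the elements of CDKN1A and others are known to lie outside windows of this size.

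Transcripts of all 9 genes were present in the transduced neurons, and none of the 9 passed the test between CRISPRi and control. Most lay within a narrow band across the libraries, with summed levels of 313 and 295 CPM in CRISPRi libraries, compared with 316 and 305 CPM in control libraries. The exception was BBC3, which differed more than 2-fold between the replicates of each group. The values follow by role, first for the genes that feed back on p53 or steer growth, then for arrest and nucleotide supply, then for apoptosis.

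**Figure D1:**
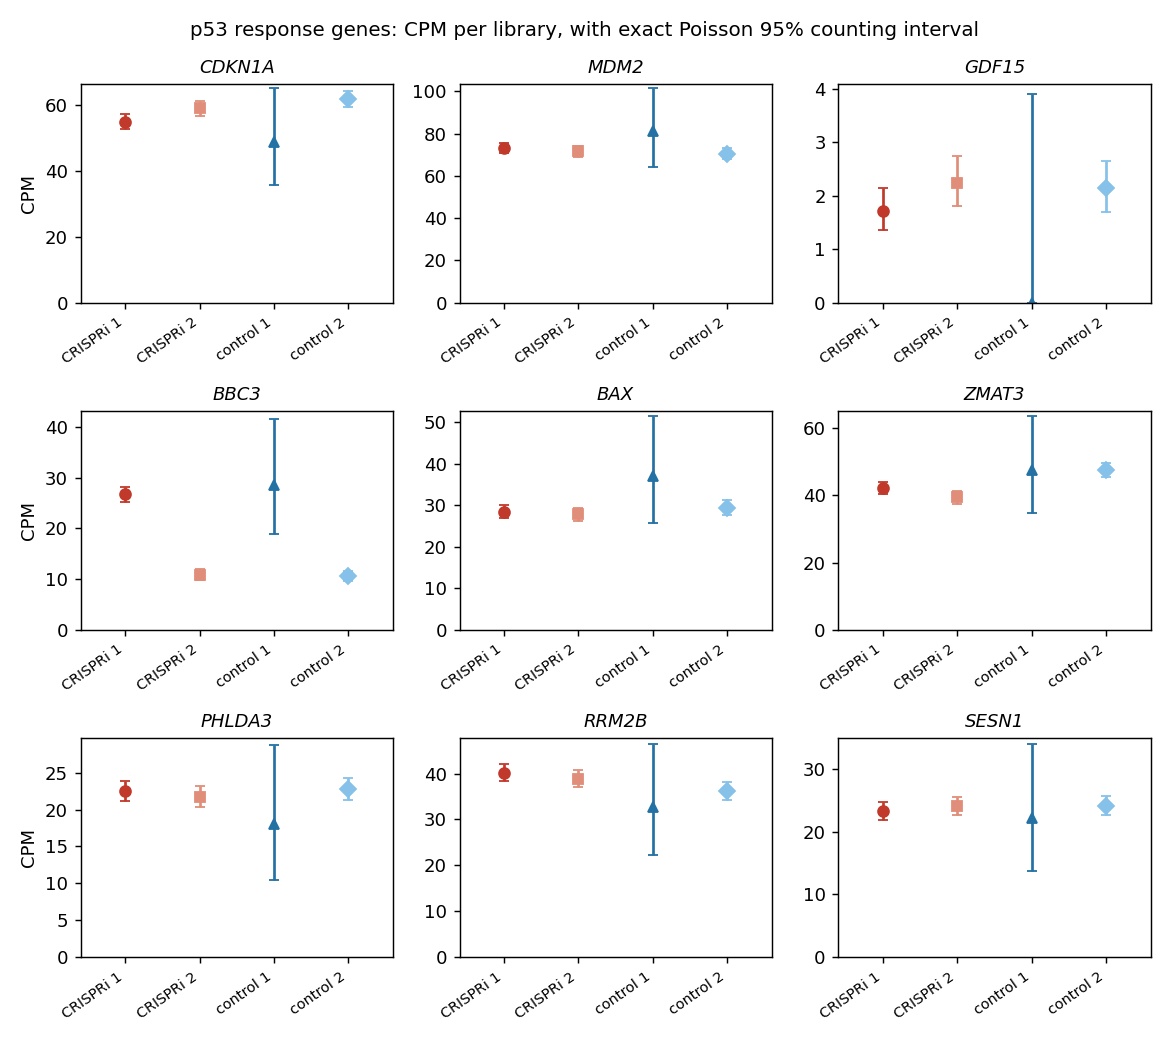
Level of each of the 9 p53 response genes in CPM (vertical axes from 0) in each library. Symbols are single libraries and bars are exact Poisson 95% counting intervals, widest in control replicate 1; BBC3 is high in replicate 1 and low in replicate 2 of both groups, from 10.5 to 28.6 CPM.

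MDM2, the ubiquitin ligase that marks p53 for degradation, lies on chromosome 12 (68808172 to 68850684, plus strand, hg38). It was at 73.2 and 71.6 CPM in CRISPRi libraries, compared with 81.5 and 70.6 CPM in control libraries. The 3 deep libraries spanned 70.6 to 73.2 CPM, the groups overlapped, and the log2 fold change was -0.01 (95% interval -0.23 to 0.21). ZMAT3, an RNA-binding zinc finger protein that acts in the growth-suppressing arm of the p53 program, lies on chromosome 3 (179017225 to 179072513, minus strand). ZMAT3 was at 42.2 and 39.4 CPM in CRISPRi libraries, compared with 47.6 and 47.6 CPM in control libraries. Both CRISPRi libraries lay below both controls, by a log2 fold change of -0.21 (SE 0.09), which did not pass by edgeR's quasi-likelihood test (unadjusted p = 0.0657, adjusted p = 1 over all genes). This value changed little with the library left out, from -0.26 to -0.16. PHLDA3, a small pleckstrin homology domain protein that restrains AKT signalling, lies on chromosome 1 (201464278 to 201469188, minus strand). It was at 22.5 and 21.7 CPM in CRISPRi libraries, compared with 18.0 and 22.7 CPM in control libraries, with overlapping groups and a log2 fold change of 0.03 (95% interval -0.32 to 0.38).

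CDKN1A encodes p21, the inhibitor of cyclin-dependent kinases that carries out p53-dependent arrest, and lies on chromosome 6 (36676463 to 36687332, plus strand). Its level was 54.9 and 58.9 CPM in CRISPRi libraries, compared with 48.7 and 61.6 CPM in control libraries. The control libraries lay on either side of the CRISPRi ones, and the log2 fold change was -0.03 (95% interval -0.32 to 0.27). DINOL, a noncoding gene on the opposite strand that overlaps CDKN1A by 951 bases, had 3 and 6 counts in CRISPRi libraries and 0 and 5 in controls. The sources used here do not say how reads in the overlap were assigned. These counts therefore do not bound what DINOL could add to CDKN1A. RRM2B, the p53-inducible subunit of ribonucleotide reductase that supplies nucleotides outside S phase, lies on chromosome 8 (102204501 to 102238961, minus strand). RRM2B was at 40.2 and 38.9 CPM in CRISPRi libraries, compared with 32.8 and 36.2 CPM in control libraries. Here both CRISPRi libraries lay above both controls, with a log2 fold change of 0.17 (SE 0.10) that did not pass by edgeR (unadjusted p = 0.148, adjusted p = 1).

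SESN1, a sestrin that couples stress to restraint of the growth kinase complex mTORC1, lies on chromosome 6 (108984309 to 109094846, minus strand). It was at 23.2 and 24.1 CPM in CRISPRi libraries, compared with 22.2 and 24.2 CPM in control libraries, with a log2 fold change of 0.00 (95% interval -0.30 to 0.31). GDF15, a secreted member of the TGF-β superfamily that serves as a stress hormone, lies on chromosome 19 (18386158 to 18389176, plus strand). It was the lowest of the 9, with 77 and 93 counts (1.72 and 2.24 CPM) in CRISPRi and 0 and 84 counts (0 and 2.14 CPM) in control replicates 1 and 2. The 0 in control replicate 1 allows up to 3.17 CPM at 3 counts, above the level in the other 3 libraries, so no difference was detectable there. The log2 fold change over all 4 libraries was 0.12, with a 95% interval of -1.40 to 1.65.

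BAX, the pore-forming protein that permeabilises the outer mitochondrial membrane, lies on chromosome 19 (48954860 to 48961798, plus strand). It was at 28.4 and 27.8 CPM in CRISPRi libraries, compared with 37.0 and 29.4 CPM in control libraries. The CRISPRi libraries lay below both controls, but the counting interval of control replicate 1 (25.8 to 51.5 CPM) covered the other 3 libraries, and the log2 fold change of -0.14 (95% interval -0.46 to 0.18) was -0.06 without that library. BBC3, the BH3-only protein that frees BAX from its inhibitors, lies on chromosome 19 (47220824 to 47232667, minus strand). It received 1196 counts in CRISPRi replicate 1 and 452 in CRISPRi replicate 2, compared with 27 in control replicate 1 and 414 in control replicate 2.

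In CPM, BBC3 was at 26.7 in CRISPRi replicate 1 and 10.9 in CRISPRi replicate 2, against 28.6 in control replicate 1 and 10.5 in control replicate 2. Replicate 1 of each group was therefore high and replicate 2 low, and the groups overlapped completely. Replicate 1 over replicate 2 was 2.45 in CRISPRi (exact 95% counting interval 2.20 to 2.74) and 2.71 in control (1.77 to 4.01). For the other 8 genes this ratio in CRISPRi ran from 0.767 for GDF15 to 1.07 for ZMAT3. Over all genes with at least 100 counts in the CRISPRi libraries together, 110 of 13568 (0.811%) differed at least 2-fold between those libraries. BBC3 was also 1 of 13 of these 13568 genes (0.0958%) that were at least 2-fold higher in replicate 1 than in replicate 2 of both groups. Each of the 13 also had 10 or more counts in control replicate 1. The labels do not say what, if anything, the replicate 1 libraries share. The microRNA genes MIR3190 and MIR3191, which overlap BBC3, had 0 to 3 counts in each library, and the authors' FPKM-like values showed the same split (14.1 and 5.78 in CRISPRi, 15.3 and 5.56 in control). The log2 fold change was 0.48 with a 95% interval of -1.33 to 2.29, so this fit, with group as its only term, could not measure a change of BBC3. It changed sign with the library left out, from -0.68 without CRISPRi replicate 1 to 0.84 without control replicate 1.

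None of the 9 genes was called (0 of 9 at an adjusted p under 0.05, edgeR quasi-likelihood), where 4 of 15708 tested genes (0.0255%) were called, 0 higher (0%) and 4 lower. At an unadjusted p under 0.05 the count was also 0 of 9, set against 151 of the tested genes (0.961%, made up of 0.547% higher and 0.414% lower in CRISPRi), and DESeq2 and limma-voom called 0 of the 9. In 3 of the 9 genes the CPM values of the groups did not overlap, 1 higher in CRISPRi (RRM2B) and 2 lower (ZMAT3 and BAX), a share close to the 34.3% found over all tested genes. The median log2 fold change of the 9 genes was 0.00, beside 0.01 over all tested genes. Without control replicate 1 the 9 values ran from -0.22 for ZMAT3 to 0.84 for BBC3, again with 0 called. For 7 of the 9 the 95% interval excluded both a doubling and a halving. The exceptions were BBC3 and GDF15, and the share over all tested genes was not computed. The p-values measure the spread between these 2 libraries per group, and no exact permutation test over 2 against 2 libraries can give a p below 0.333.

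**Figure D2:**
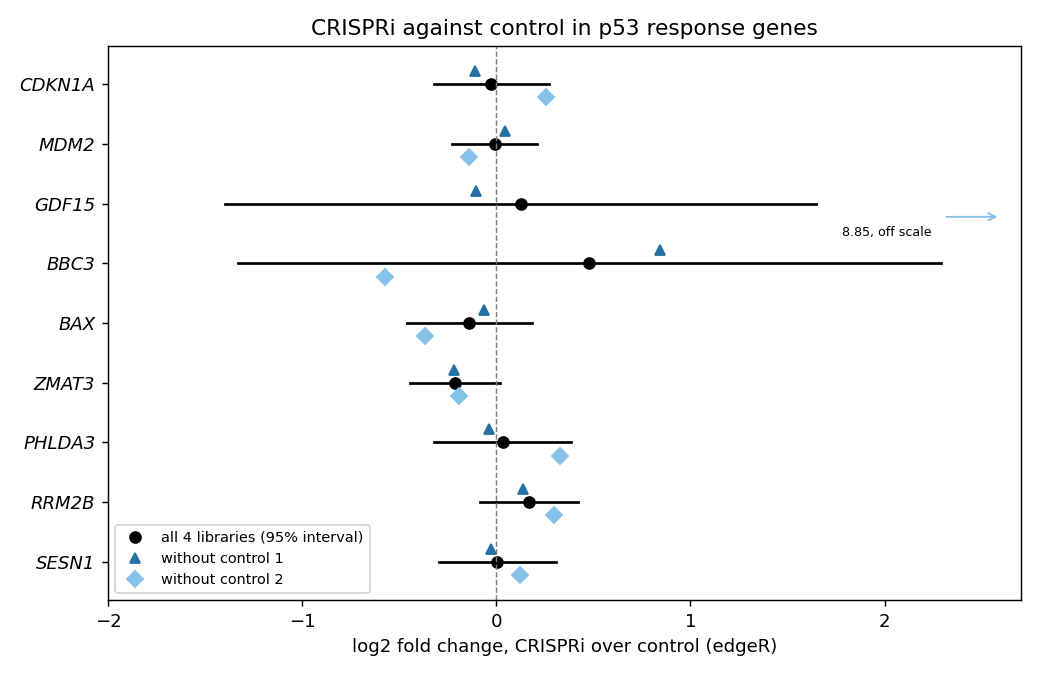
log2 fold change of CRISPRi over control (horizontal axis) for the 9 p53 response genes. Black points and lines are the edgeR estimate and 95% interval from all 4 libraries, and coloured symbols are estimates without 1 control library; BBC3 and GDF15 have the widest intervals, and the GDF15 value without control replicate 2 (8.85, fitted against 0 counts) lies off the scale.

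Levels of different genes were set beside each other with the FPKM-like values deposited by the authors, which were read here as levels per transcript length. They are not counts over 1 fixed length per gene. GDF15 was listed at 0.143 in control replicate 1 with 0 counts, and SESN1 ran from 5.22 to 6.85 in the deep libraries at 23.2 to 24.2 CPM. By the median of the 3 deep libraries the order was BAX (33.1), CDKN1A (26.8), MDM2 (8.28), PHLDA3 (7.98), RRM2B (7.95), SESN1 (6.09), BBC3 (5.78), ZMAT3 (4.55) and GDF15 (1.74). Over the 4 libraries BAX at 32.6 to 41.2 and CDKN1A at 22.5 to 28.1 did not overlap with each other or with any of the other 7, while the ranges of neighbours in this order overlapped from MDM2 down to BBC3. ZMAT3, at 4.27 to 5.15, lay below BBC3, at 5.56 to 15.3, but within the range of SESN1, and GDF15 was below the other 8 in every library. Among all tested genes BAX stood at percentile 87.2 and CDKN1A at 84.1 of this value, with MDM2 at 59.4, ZMAT3 at 47.0 and GDF15 at 31.4. The most abundant of the 9 genes were thus an effector of apoptosis and the effector of arrest.

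Paralogs of the 9 genes were then set beside them, per length. Among these paralogs CDKN1C, SESN2 and BAK1 are also in the wider p53 target list described below. CDKN1B (p27), the paralog of CDKN1A, was at 30.9 and 30.5 FPKM in CRISPRi and 29.9 and 29.4 FPKM in control, above CDKN1A in each library. MDM4, the partner of MDM2 that masks p53, was at 1.29 and 1.12 FPKM in CRISPRi and 1.33 and 1.41 FPKM in control, below MDM2 in each library. SESN3, a sestrin controlled by FOXO factors, was at 23.9 and 23.8 FPKM in CRISPRi and 19.4 and 23.6 FPKM in control, above SESN1 in each library. PHLDA1 was at 20.8 and 22.9 FPKM in CRISPRi and 21.5 and 21.4 FPKM in control, above PHLDA3 in each library. CDKN1C, SESN2 and PHLDA2 were listed at 0 FPKM in every library although they had counts (73.5 to 77.0, 35.3 to 36.3 and 1.66 to 1.85 CPM in CRISPRi), so their level per length could not be used.

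Among the relatives of RRM2B, BAX and BBC3, several were highest in control replicate 1. RRM2, the subunit made in S phase, was at 2.68 and 3.06 FPKM in CRISPRi and 11.9 and 2.81 FPKM in control replicates 1 and 2, so that RRM2B was above RRM2 in the 3 deep libraries and below it in control replicate 1. RRM1, the large subunit, was at 15.7 and 15.7 FPKM in CRISPRi and 25.4 and 15.003 FPKM in control. BAK1, the other pore former, was at 3.59 and 3.07 FPKM in CRISPRi and 9.58 and 3.67 FPKM in control, below BAX in each library. PMAIP1 (NOXA), a second BH3-only target of p53, was at 0.48 and 0.553 FPKM in CRISPRi and 12.98 and 0.564 FPKM in control. BBC3 was the more abundant of this pair in each library.

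**Figure D3:**
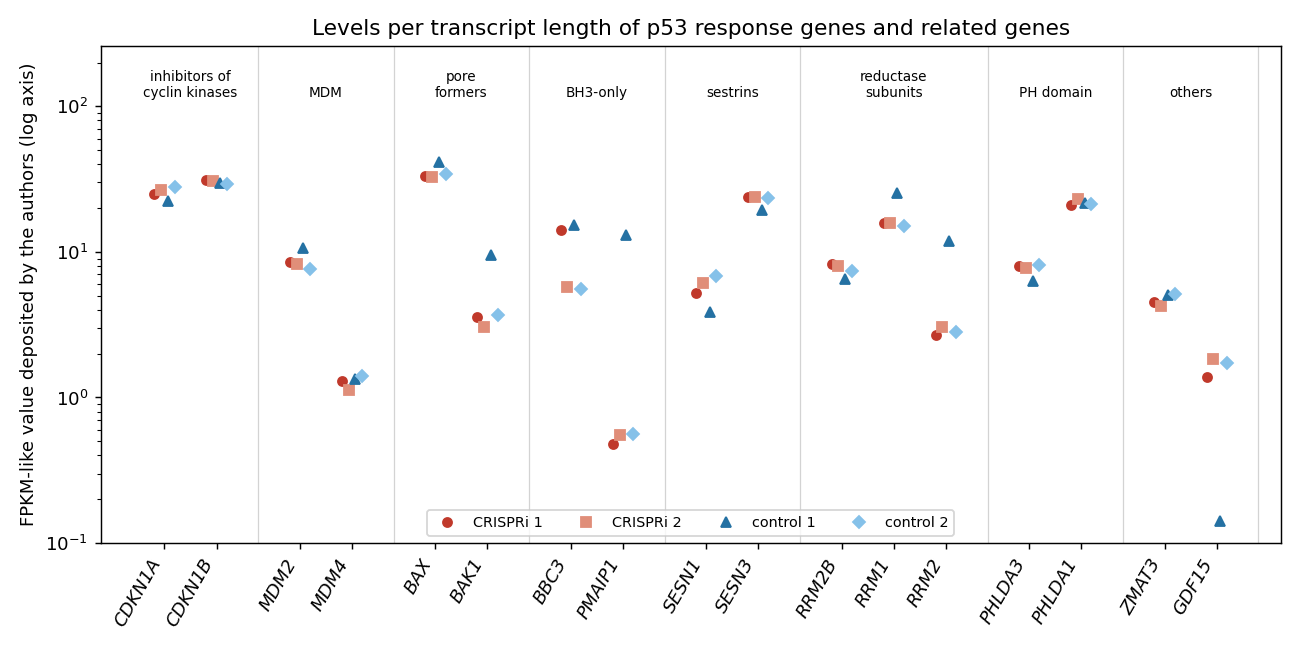
FPKM-like values deposited by the authors (vertical log axis) for the p53 response genes and related genes, grouped by family, with 1 symbol per library. RRM2, BAK1 and PMAIP1 are higher in control replicate 1 than in the other 3 libraries, and BBC3 splits into replicate 1 (14.1 and 15.3) and replicate 2 (5.78 and 5.56).

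The wider program was described with 68 other p53 target genes, of which 64 passed the filter on low counts. Of these, 0 were called higher and 0 lower by edgeR, 0 had an unadjusted p under 0.05, and DESeq2 and limma-voom called 0. Their median log2 fold change was 0.01, like that of all tested genes. Within 0.25 of 0 lay 52 of the 64, beside 12412 of all 15708 tested genes, a similar share. The groups did not overlap in 10 genes that were higher and 15 that were lower in CRISPRi, of 64, beside 17.8% and 16.5% of all tested genes. The 95% interval excluded both a doubling and a halving for 50 of the 64, and the share over all tested genes was not computed. By role, the median log2 fold change was -0.04 for 11 genes of growth arrest (5 positive, 6 negative), -0.01 for 18 of apoptosis (9 and 9) and 0.01 for 8 of feedback (5 and 3). It was 0.01 for 9 genes of DNA repair (5 and 4) and 0.05 for 18 of metabolism (10 and 8). Without control replicate 2, which leaves the shallow library as the only control, 8 genes of the wider list and 0 of the 9 were called, beside 8.58% of all genes tested in that fit.

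Among the abundant targets the groups differed little. The death receptor TNFRSF10B was at 93.4 and 89.6 CPM in CRISPRi libraries, compared with 101 and 88.0 CPM in control libraries (log2 fold change 0.01), and CPT1C, a neuronal carnitine palmitoyltransferase, at 111 and 108 CPM in CRISPRi libraries, compared with 112 and 111 CPM in control libraries (-0.02). On the same scale the helicase ASCC3 was at -0.10 and the antioxidant enzyme GPX1 at -0.16. The phosphatase PTP4A1 was at 114 and 192 CPM in CRISPRi libraries, compared with 183 and 189 CPM in control libraries, and its log2 fold change of -0.27 was 0.06 without CRISPRi replicate 1.

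The smallest p-values in the wider list were those of BLOC1S2, a subunit of organelle biogenesis complexes, and the antiproliferative gene BTG1. BLOC1S2 was at 83.2 and 83.7 CPM in CRISPRi libraries, compared with 74.1 and 75.1 CPM in control libraries, a log2 fold change of 0.17 (SE 0.07, unadjusted p = 0.0626, adjusted p = 1 by edgeR). BTG1 was at 43.2 and 43.2 CPM in CRISPRi libraries, compared with 34.9 and 38.6 CPM in control libraries, a log2 fold change of 0.20 (SE 0.10, unadjusted p = 0.0864, adjusted p = 1 by edgeR). Both kept their direction with each library left out, at 0.16 to 0.20 and 0.17 to 0.34. The mitochondrial proline catabolic enzyme ALDH4A1 was at -0.16 (log2 fold change), and SFN, an epithelial 14-3-3 protein, was near the floor with 6 and 1 counts in CRISPRi libraries and 1 and 10 in controls.

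**Figure D4:**
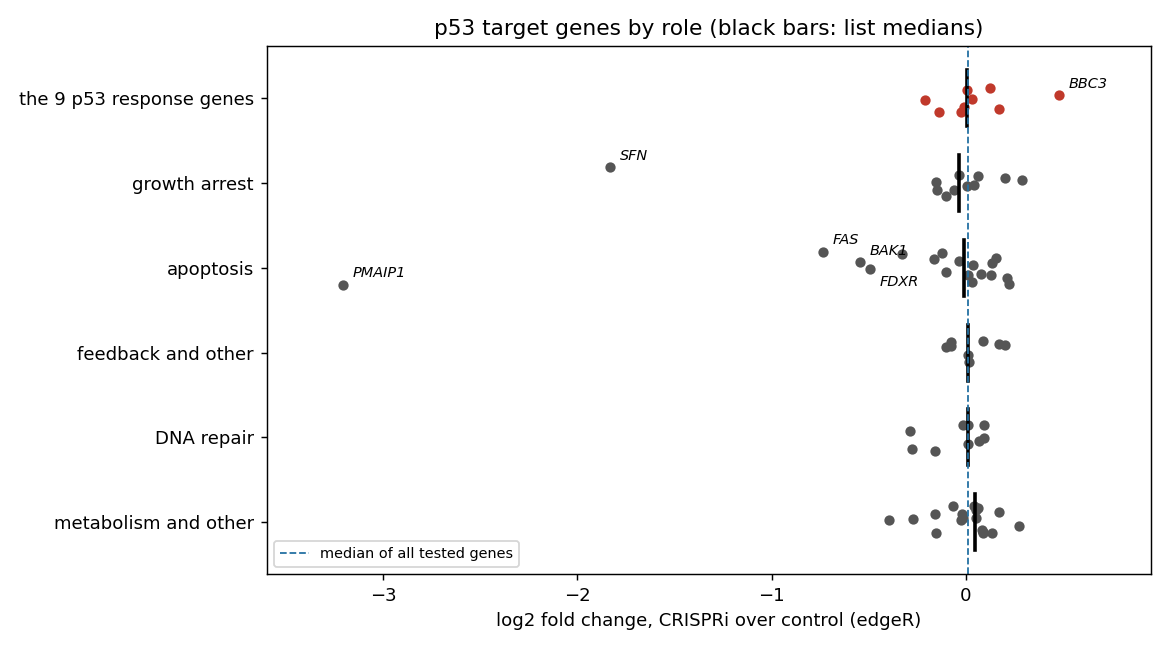
log2 fold change of CRISPRi over control (edgeR, horizontal axis) for the 9 p53 response genes (red) and the 64 tested genes of the wider p53 target list (grey), by role; vertical spread within a row is for legibility. Black bars are list medians, the dashed line is the median of all tested genes, and the points farthest to the left are PMAIP1 (-3.21) and SFN (-1.83).

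PMAIP1 had the lowest log2 fold change of the wider list, -3.21 (SE 1.54, adjusted p = 1 by edgeR), and its high value lay in 1 library. It had 42 and 45 counts (0.937 and 1.08 CPM) in CRISPRi, against 24 counts (25.4 CPM) in control replicate 1 and 44 counts (1.12 CPM) in control replicate 2. Leaving out control replicate 1 gave a log2 fold change of -0.14, and leaving out control replicate 2 gave -4.62, which was called. CDKN2A, the locus of the p14ARF protein that blocks MDM2 and of the kinase inhibitor p16, had the same shape, at 0.468 and 0.505 CPM in CRISPRi libraries, compared with 46.6 and 0.483 CPM in control libraries. Its log2 fold change of -5.28 (adjusted p = 1 by edgeR) was 0.02 without control replicate 1, and -6.54 and called without control replicate 2. Whether these values are linked to the high cell cycle genes of control replicate 1 was not tested.

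In control replicate 1 most of the 9 p53 response genes lay within counting error of the other libraries. For 8 of the 9 the exact Poisson 95% interval of its count contained all 3 deep libraries, and for BBC3 it contained CRISPRi replicate 1 alone. The same held for 51 of the 68 genes of the wider target list, and the share over all genes was not computed. These intervals were wide, at 10.5 to 28.8 CPM for PHLDA3 and 0 to 3.90 CPM for GDF15. They could therefore miss sizeable differences in this library. All 20 cell cycle genes had a negative log2 fold change (median -1.09, 0 called), with a median of 0.02 without control replicate 1, and of -2.35 with 17 called without control replicate 2. The interval lay above all 3 deep libraries for 19 of the 20 cell cycle genes, where the mitotic kinase AURKB was at 1.40 and 1.66 CPM in CRISPRi libraries, compared with 25.4 and 1.35 CPM in control libraries. In the wider target list the interval lay above the deep libraries for 8 of 68 genes, among them PMAIP1, AEN, BAK1 and PCNA, and below them for 3. PCNA, the replication clamp, was at 21.9 and 20.4 CPM in CRISPRi libraries, compared with 48.7 and 19.4 CPM in control libraries, and AEN, a p53-induced nuclease, at 30.4 and 30.6 CPM in CRISPRi libraries, compared with 61.4 and 31.5 CPM in control libraries. Summed over lists, control replicate 1 over the mean of the deep libraries was 1.04 for the 9 genes, 0.964 for targets in arrest, 1.20 for targets in apoptosis, 1.26 for targets in repair and 4.90 for the cell cycle genes.

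**Figure D5:**
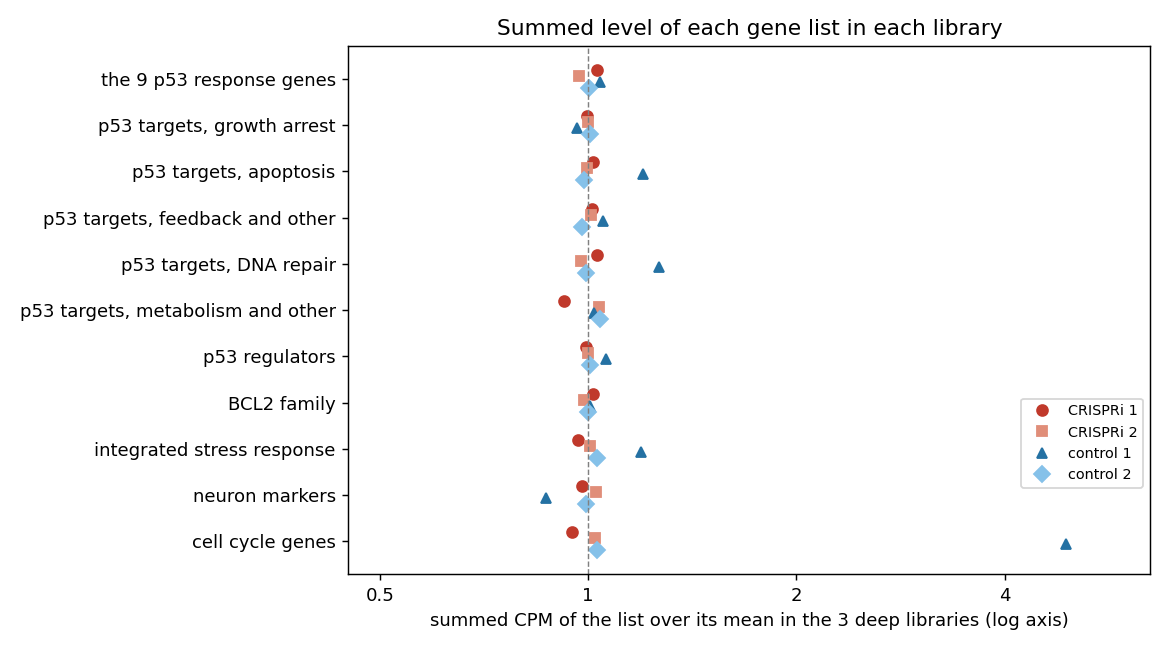
Summed CPM of each gene list in each library, divided by its mean in the 3 deep libraries (horizontal log axis, dashed line at 1). Cell cycle genes in control replicate 1 lie at 4.90, and the 9 p53 response genes lie near 1 in all 4 libraries.

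Genes that act on p53, proapoptotic and antiapoptotic genes of the BCL2 family and targets of the integrated stress response were set beside the 9 genes. The integrated stress response is a program that also induces GDF15 and SESN2. Of 21 tested p53 regulators 0 were called, with a median log2 fold change of -0.01. Within 0.25 of 0 lay 19 of the 21, beside 12412 of all 15708 tested genes. The acetyltransferase EP300, which acts as a p53 coactivator, was at 188 and 185 CPM in CRISPRi libraries, compared with 204 and 199.9 CPM in control libraries (log2 fold change -0.10). Of 13 tested members of the BCL2 family 0 were called, with a median of -0.01, and of 14 paralogs of the 9 genes 0, with a median of -0.07. In the BCL2 family the antiapoptotic members BCL2L1 (58.7 to 61.2 FPKM in the deep libraries) and MCL1 (47.2 to 48.9 FPKM) were above BAX and BBC3 per length. So was the proapoptotic member BAD (54.5 to 57.0 FPKM in the deep libraries), which lay above MCL1 and below BCL2L1. The antiapoptotic members BCL2L2 (7.32 to 7.59 FPKM in the deep libraries) and BCL2 (2.90 to 3.10 FPKM) were below BAX, and BCL2A1 had 0 counts in every library. Of 17 tested targets of the integrated stress response 0 were called, with a median of -0.11 (-0.05 without control replicate 1). The log2 fold change was positive for 5 and negative for 12. The groups did not overlap in 4 that were higher and 9 that were lower in CRISPRi, of 17, beside 17.8% and 16.5% of all tested genes. The counting interval of control replicate 1 lay above all 3 deep libraries for 6 of the 19 listed genes and below them for 1. Without control replicate 2 there were 3, 3, 4 and 4 calls among the regulators, the BCL2 family, the paralogs and the stress response targets, beside 8.58% of all genes tested in that fit. The transcription factor ATF4 was at 323 and 345 CPM in CRISPRi libraries, compared with 433 and 366 CPM in control libraries (log2 fold change -0.23, or -0.13 without control replicate 1), and SESN2 at 36.3 and 35.3 CPM in CRISPRi libraries, compared with 49.7 and 37.2 CPM in control libraries (-0.15, or -0.05 without that library). The cystine transporter SLC7A11 was counted 29 and 27 times in CRISPRi libraries and 2 and 55 times in controls, a log2 fold change of -1.20 (SE 0.49, adjusted p = 1 by edgeR).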

How the data were processed

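PolyA RNA (paired-end, 75 bp) was sequenced from 4 libraries. The authors deposited files without a header that give each gene a count of reads and an FPKM-like value, a unit read here from the values. Per the submitters' processing notes the build is hg38 and tools include edgeR and limma; the sources used here do not name aligner, counter or strandedness. Counts were summed per symbol over all rows (5.08% to 5.15% of counts lie off the primary chromosomes), and CPM used the library's total gene count. Groups were compared with edgeR 4.0.16 in R 4.3.3 by its robust quasi-likelihood fit after TMM scaling and filterByExpr, with group as the only term and p-values adjusted by Benjamini-Hochberg over 15708 genes (threshold 0.05); standard errors and 95% intervals derive from the F statistic. The fit was tested on simulated counts. Intervals on counts cover counting error only. DESeq2 1.42.0, limma-voom (limma 3.58.1), other scalings, filters, a replicate block, thinning, primary chromosomes and leaving out each library were alternatives.

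The members and lists were chosen with earlier results of these data known. Besides the 9 genes, the rule named their paralogs, in the wider list the 8 with the smallest p and the 6 with the highest mean CPM, and 2 per other list; not every gene so named is described. BCL2L1, MCL1, BCL2, BCL2L2, BCL2A1, DCN, BAD, AEN, XPC, PCNA and PLK2 were named after their values were seen. FPKM values were used for levels only.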

Additional observations from a re-analysis of the deposited data

How the results depend on the processing

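Under every alternative run, 0 of the 9 p53 response genes were called; GDF15 could not be tested after thinning. Of 116 values of the 9 genes under alternatives, 99 kept their direction and 17 turned sign, each for a gene that did not pass. The turns were CDKN1A (0.01 with DESeq2, 0.04 with the replicate block, 0.27 after the deep libraries were thinned to control replicate 1), MDM2 (0.03 with limma-voom), BBC3 (-0.07 after thinning), PHLDA3 (-0.02 with limma-voom) and SESN1 (-0.01 with total-count scaling, -0.02 with limma-voom, -0.48 after thinning), and with a library left out CDKN1A (-0.11 to 0.25), MDM2 (-0.14 to 0.04), GDF15 (-0.11 to 8.85 where it was fitted against 0 counts, which is no bound), BBC3 (-0.68 to 0.84), PHLDA3 (-0.04 to 0.33) and SESN1 (-0.02 to 0.12). Among the other named genes signs turned for CDKN1B (-0.28), SESN2 (0.16) and TNFRSF10B (-0.16, and -0.01 with the replicate block) after thinning, and for RRM1 (0.03), MCL1 (0.02), XPC (0.11) and PCNA (0.06) with limma-voom. TNFRSF10B with total-count scaling and DESeq2, GPX1 with limma-voom and BAD with the replicate block also turned, each to a value that rounds to 0.00, as did CPT1C without CRISPRi replicate 2. With a library left out they turned for RRM1 (-0.68 to 0.07), RRM2 (-2.11 to 0.03), PHLDA1 (-0.03 to 0.11), PTP4A1 (-0.70 to 0.06), GPX1 (-0.52 to 0.04), TNFRSF10B (-0.11 to 0.06), CDKN2A (-6.54 to 0.02), AURKB (-4.02 to 0.19), BCL2L1 (-0.01 to 0.38), MCL1 (-0.12 to 0.04), BAD (-0.03 to 0.03), XPC (-0.89 to 0.16) and PCNA (-1.18 to 0.13). The wider target list had 0 called, and 8 without control replicate 2, where control replicate 1 stands alone and is assumed to vary like the other group; among these were AEN, BAK1, PCNA and PMAIP1, lower, and PLK2, higher. Its median of 0.0097 became -0.0022 with total-count scaling and -0.0059 with limma-voom, and leaving out each library gave 0.0036 to 0.0269. Over all genes, DESeq2 called 1 gene higher and 11 lower, limma-voom 2 lower, and the fit with a replicate block 17 higher and 25 lower, beside 0 and 4 here; leaving out each library gave 2 to 580 higher and 15 to 798 lower. The cause was not tested. The labels give no pairing by replicate number, and deviations from the group means in the replicate 1 libraries correlated at -0.03 over genes; with the replicate block BBC3 was at 0.00. In control replicate 1, 3 counts equal 3.17 CPM, which limits low genes such as GDF15.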
